A study of Mus musculus with 4 samples.

Results

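The genes described here are 10 imprinted genes of the mouse that lie outside the Igf2, Kcnq1 and Dlk1-Meg3 domains: Peg3, Usp29, Peg10, Sgce, Plagl1, Mest, Snrpn, Nnat, Igf2r and Grb10. They were taken by symbol. All probe sets of the array that the platform annotation assigns to 1 of these symbols and no other were used, which gave 21 probe sets for 10 genes, of 45037 probe sets for 18193 genes once the manufacturer's controls were set aside. Expression was measured in E14 cells, a line of mouse embryonic stem cells, on 4 single-channel Affymetrix arrays: 2 of cells labelled control RNAi and 2 of cells labelled Npac RNAi. All cells were kept in serum (15%) with 1000 units per ml of LIF, the cytokine that holds such cells undifferentiated. Puromycin was applied 24 hours after lipid transfection of a short hairpin RNA, and RNA was taken after 3 days of selection. The hairpin of the control cells is not given in the sources used here. Nor is it stated that the 2 arrays of a group came from separate cultures, so the spread between arrays may be technical. The p-values rest on that spread for each probe set, drawn in part towards the spread of all probe sets. Glyr1 is the current symbol of the Npac gene, whose protein is found on transcribed chromatin.

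Imprinted genes are transcribed mainly from 1 of the parental copies, because a control region was methylated in the egg or the sperm and the mark was kept after fertilisation. ZFP57, a zinc finger protein, and its partner TRIM28 hold this methylation in place in embryonic stem cells. Peg3, Usp29, Peg10, Sgce, Plagl1, Mest, Snrpn and Nnat are expressed from the paternal copy, while Igf2r and Grb10 are expressed from the maternal copy in most tissues. Several of them act on growth of the embryo and the placenta. The arrays read total transcript and do not tell parental copies apart, and DNA methylation was not measured.

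Promoter sequences are shown for the genes at which the pattern below turns, because the control regions of some imprinted genes lie at their starts. RefSeq windows of 300 bases (GRCm38.p6) were found for 8 of the 10 genes, 14 windows in all, and none was at hand for Peg10 and Sgce. Peg3 and Usp29 start close together and run in opposite directions, so that their windows share 263 bases, each being the reverse complement of the other there. Capitals mark CpG, the dinucleotide that carries DNA methylation. The Peg3 window has 13 and the Usp29 window 17, against a median of 7 and an upper quartile of 20 over 32851 windows of all genes.
Peg3, chr7:6730370-6730669, minus strand: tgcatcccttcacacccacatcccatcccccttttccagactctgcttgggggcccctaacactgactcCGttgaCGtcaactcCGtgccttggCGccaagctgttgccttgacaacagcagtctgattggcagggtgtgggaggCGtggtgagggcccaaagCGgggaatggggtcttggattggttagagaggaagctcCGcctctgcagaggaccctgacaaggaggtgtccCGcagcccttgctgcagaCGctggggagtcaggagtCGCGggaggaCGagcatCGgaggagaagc
Usp29, chr7:6730333-6730632, plus strand: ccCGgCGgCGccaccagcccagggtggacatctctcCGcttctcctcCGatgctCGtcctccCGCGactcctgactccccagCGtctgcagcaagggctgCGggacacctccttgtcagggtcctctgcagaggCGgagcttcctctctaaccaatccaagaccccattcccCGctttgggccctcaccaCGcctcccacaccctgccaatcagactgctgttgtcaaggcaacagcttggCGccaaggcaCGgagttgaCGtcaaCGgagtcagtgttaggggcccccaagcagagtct
The core motif of ZFP57, TGCCGC, was searched on both strands in every window, and 11.6% of all 32851 windows held it. It was present in 6 of the 14 windows, belonging to Plagl1, Mest, Grb10, Snrpn and Nnat, and neither the Peg3 nor the Usp29 window held these letters. The Mest windows with the motif overlap almost wholly and are not separate promoters. The motif itself holds a CpG. The windows with it have 45 CpG for Grb10, 26 for Plagl1 and 17 for Mest and Nnat, but 7 for Snrpn. The shares are therefore not like for like, and no excess is read from them. Plagl1 is printed as the gene of this set that fell most, and Mest as a gene whose level moved little. The Mest window has 2 matches. Grb10, Snrpn and Nnat, which also have a match, had no call as genes. A link between motif and level was not tested. Capitals mark the motif, here as its reverse complement. These matches describe the letters and not binding.
Plagl1, chr10:13090582-13090881, plus strand: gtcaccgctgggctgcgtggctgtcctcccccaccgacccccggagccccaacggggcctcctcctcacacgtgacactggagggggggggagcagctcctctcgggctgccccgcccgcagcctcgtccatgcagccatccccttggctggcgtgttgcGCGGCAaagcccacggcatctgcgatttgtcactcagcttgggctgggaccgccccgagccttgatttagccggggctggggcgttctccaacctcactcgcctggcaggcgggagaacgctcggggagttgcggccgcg
Mest, chr6:30737800-30738099, plus strand: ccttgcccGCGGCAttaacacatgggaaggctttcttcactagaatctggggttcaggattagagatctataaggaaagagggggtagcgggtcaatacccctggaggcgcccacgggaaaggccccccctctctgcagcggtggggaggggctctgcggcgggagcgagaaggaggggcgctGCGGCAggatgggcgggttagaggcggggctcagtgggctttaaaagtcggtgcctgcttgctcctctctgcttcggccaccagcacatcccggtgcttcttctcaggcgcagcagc

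The targeted gene was lower where the labels say it was depleted: Glyr1 read 11.30 and 11.32 on the control RNAi arrays and 10.23 and 10.20 on the Npac RNAi arrays (log2 scale; difference -1.09, SE 0.0554, limma adjusted p = 0.00171). Replicate arrays correlated at 0.998 in each group across probe sets, which are not independent replicates. Of the embryonic stem cell markers, 6 of 9 were lower in Npac RNAi, and their summed level fell from 16.29 on both control arrays to between 15.92 and 15.94 (log2 of the summed signal). Of the trophoblast markers 8 of 10 were higher, and their summed level went from 13.30 and 13.32 to 15.35 and 15.37. Krt8 (mean 12.07 to 14.13) and Krt18 (11.96 to 14.10) were the brightest of them and weigh most in this sum. Elf5 (0.42) and Tpbpa (-0.25) had no call. Markers of fibroblasts, which serve as feeder cells in such cultures, gave 1 higher and 2 lower of 11 (summed level 10.13 to 10.29 in control, 10.24 and 10.25 in Npac RNAi). Primitive endoderm markers gave 2 higher of 8 (11.91 to 11.95 against 11.99 to 12.05), and neural markers 1 higher and 3 lower of 5 (9.74 to 9.77 against 10.03 to 10.06). The higher neural marker was Neurod1 (1.75), so the neural sum rose although most of the called neural markers fell. Beside these counts, 33.9% of all genes were called at a limma adjusted p under 0.05, 19.3% higher and 14.6% lower. No marker can read 0 on this scale. The part of these shifts in the results below was not tested, and in bulk RNA a change in the share of cells cannot be told apart from a change in RNA per cell.

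With Npac depleted, 3 of the paternally expressed genes stood at more than double their control level: Peg3 (3.39-fold), Peg10 (2.66-fold) and Sgce (2.47-fold). Plagl1, a paternally expressed gene for a growth-restraining transcription factor, fell to 46.5% of its control level, and Igf2r fell to 73.2%. Usp29, Mest, Snrpn, Nnat and Grb10 did not pass the test. Snrpn is judged here by the 1 probe set annotated to it alone. Of 6 further probe sets annotated to both Snurf and Snrpn, 4 were called lower, as given below. The brightest probe set (mean of all 4 arrays) stands for a gene, and calls were made in limma where the adjusted p lay under 0.05, with Benjamini-Hochberg adjustment over all 45037 probe sets. The 3 higher and 2 lower calls among the 10 genes stand beside 33.9% of all 18193 genes called, 19.3% higher and 14.6% lower. Calls of at least 2-fold were made for 4 of the 10 genes (3 higher, 1 lower), and for 3.18% of all genes. Of the 10 genes, 8 lie at or above the median level of all probe sets. In a fit of only the probe sets at or above that level, 56.9% were called. The genes were also chosen with earlier results of these data known. The shares are therefore not like for like, and no excess is read from them. The median difference over the 10 genes was 0.09 on the log2 scale, and -0.04 over all genes. Of the 21 probe sets 7 were called higher and 2 lower, beside 28.2% of all 45037 probe sets called, 6378 of them higher and 6327 lower.

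**Figure D1:**
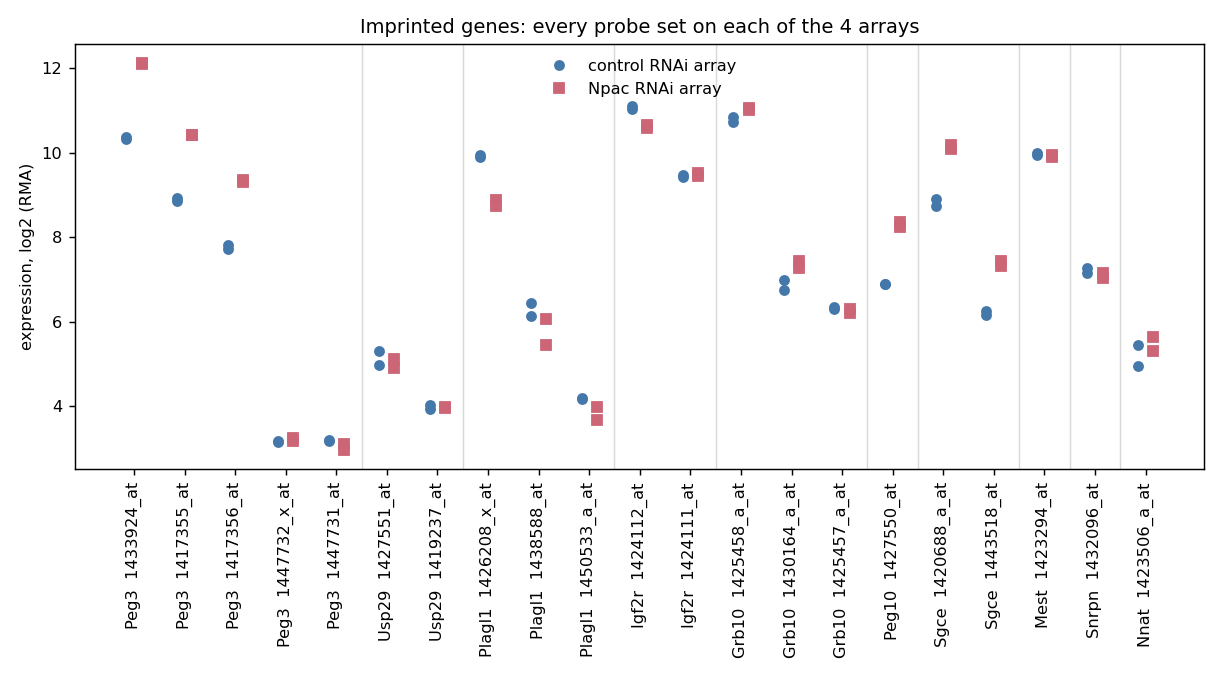
Expression (log2, RMA) of the 21 probe sets of the 10 imprinted genes; circles are the 2 control RNAi arrays, squares the 2 Npac RNAi arrays, and probe sets of a gene run from brightest to dimmest. The brightest Peg3 probe set sits at 10.33 and 10.36 in control and at 12.10 and 12.11 in Npac RNAi, whereas the Mest values of both groups lie between 9.90 and 10.00.

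Peg3 encodes a large zinc finger protein that binds DNA. Its brightest probe set, 1433924_at, read 10.33 and 10.36 in control RNAi and 12.10 and 12.11 in Npac RNAi. The replicates lay far closer to each other than the groups did, with SDs of 0.023 and 0.0086 (n = 2 each) and a difference of 1.76 (SE 0.0559, limma adjusted p = 0.0011). The probe set 1417355_at gave 8.92 and 8.87 against 10.41 and 10.42, and 1417356_at gave 7.73 and 7.82 against 9.31 and 9.35. These differences were 1.52 (SE 0.0573) and 1.56 (SE 0.0644), so 3 probe sets read a rise of similar size. The other 2 Peg3 probe sets, 1447732_x_at and 1447731_at, lay at 2.97 to 3.26 on every array, at the very bottom of the array's range, and were not called (0.05 and -0.16). With these averaged in, the Peg3 difference was 0.95. Across all genes, 104 had a rise at least as large as that of Peg3, Peg3 included.

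Usp29 encodes a ubiquitin-specific protease and starts beside Peg3 in the shared promoter region printed above. Its brighter probe set, 1427551_at, read 4.98 and 5.31 in control and 4.91 and 5.13 in Npac RNAi, and the groups overlapped. The difference was -0.13 (SE 0.142, limma adjusted p = 0.535), against 1.76 for Peg3. The dimmer one, 1419237_at, read between 3.95 and 4.02 on all 4 arrays (-0.01, SE 0.0597). Both lie in the dim part of the array, where a change of a scarce transcript may not be read, so no rise of the kind seen for Peg3 was detectable for its divergent partner. The imprinted zinc finger genes on either side of the pair had no call: Zim1 differed by -0.17 (SE 0.0565) and Zim3 by 0.04 (SE 0.102).

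Peg10, a gene derived from a retrotransposon and needed for the placenta, was read by 1 probe set, 1427550_at. It stood at 6.89 and 6.90 in control and at 8.36 and 8.25 in Npac RNAi, a rise of 1.41 (SE 0.0658, limma adjusted p = 0.0015). Sgce, the epsilon-sarcoglycan gene of the cell membrane, is its neighbour and is transcribed away from it. The Sgce probe set 1420688_a_at read 8.89 and 8.74 in control and 10.08 and 10.17 in Npac RNAi (1.31, SE 0.08, limma adjusted p = 0.00231). The second, 1443518_at, read 6.16 and 6.26 against 7.33 and 7.45 (1.18, SE 0.0753). All 3 probe sets of this divergent pair were thus called higher, by 1.18 to 1.41. Without moderation of the variances across probe sets, the Sgce call was lost (limma adjusted p = 0.06).

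Plagl1 encodes a zinc finger transcription factor that restrains growth. Its brightest probe set, 1426208_x_at, read 9.94 and 9.89 in control and 8.73 and 8.88 in Npac RNAi. The fall of 1.10 on the log2 scale (difference -1.10, SE 0.0749, limma adjusted p = 0.00279) exceeded the replicate SDs of 0.032 and 0.105. The suffix of this probe set marks probes that may also bind other transcripts, so its value is uncertain in that respect. The probe sets that stand for Ndn, Atp10a and Trim28 below carry the same suffix. The probe set 1438588_at read 6.14 and 6.43 against 6.08 and 5.44, and 1450533_a_at read 4.20 and 4.17 against 3.98 and 3.69. Their differences, -0.53 (SE 0.238) and -0.35 (SE 0.113), had the same sign and no call (limma adjusted p = 0.162 and 0.0807). With the 3 probe sets averaged the Plagl1 difference was -0.66, and without moderation of the variances its call was lost (limma adjusted p = 0.0617).

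**Figure D2:**
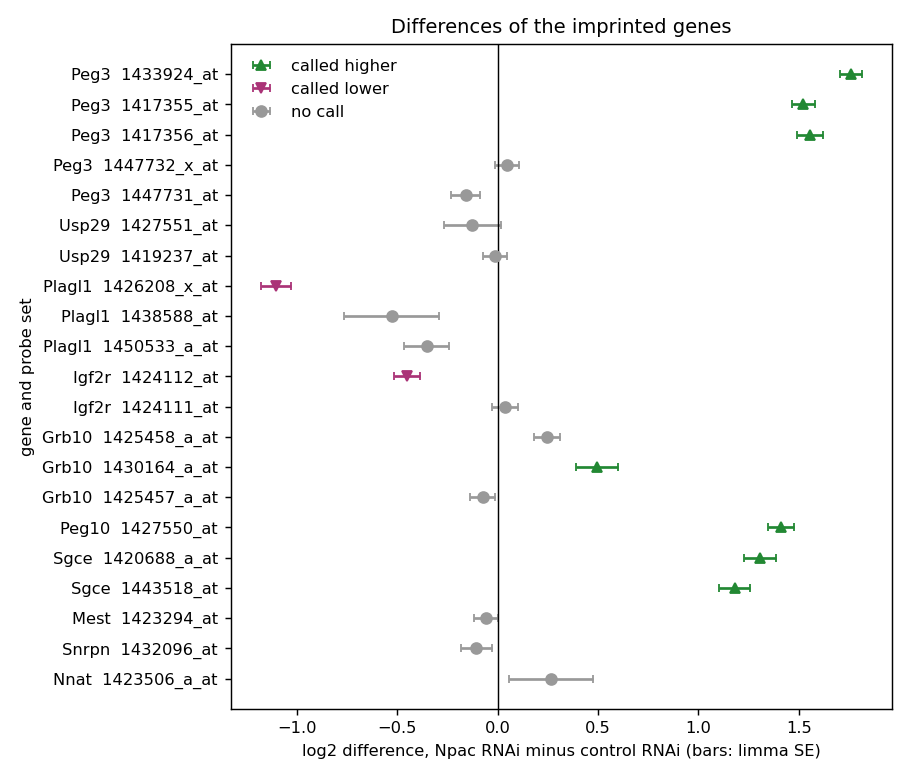
Log2 difference of each probe set (Npac RNAi minus control RNAi, n = 2 arrays per group) with limma's standard error as bars; triangles mark calls at an adjusted p under 0.05. The called rises of Peg3, Peg10 and Sgce lie between 1.18 and 1.76, and the called falls are those of Plagl1 at -1.10 and Igf2r at -0.45.

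Igf2r encodes the receptor that takes up IGF2 and sends it to the lysosome. The brighter probe set, 1424112_at, read 11.03 and 11.11 in control and 10.65 and 10.59 in Npac RNAi (-0.45, SE 0.0637, limma adjusted p = 0.0126). The second, 1424111_at, read 9.48 and 9.41 against 9.44 and 9.53, with overlapping groups (0.04, SE 0.0654, limma adjusted p = 0.699). The probe sets of Igf2r thus disagreed, and their average differed by -0.21. The call was also lost without any 1 of the 4 arrays, where the difference was -0.49 to -0.41. With an array left out, calls became fewer over all probe sets. A call lost in this way, here and below, is therefore not particular to the gene. Airn, the paternally expressed noncoding RNA that runs antisense across the Igf2r promoter and silences the paternal copy where Igf2r is imprinted, was higher. Its brightest probe set read 6.49 and 6.53 in control and 7.20 and 7.45 in Npac RNAi (0.81, SE 0.101, limma adjusted p = 0.00939). Of the 5 Airn probe sets 3 were called higher (0.81, 1.05 and 1.19) and the dimmest 2 had no call (0.24 and -0.13). The Airn call was lost without either control array (limma adjusted p up to 0.0703). With all 5 averaged, Airn differed by 0.63. The 1 probe set annotated to both Airn and Igf2r had no call (-0.07).

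Grb10 encodes an adaptor protein that restrains signalling from the insulin and IGF receptors. The brightest probe set, 1425458_a_at, read 10.84 and 10.73 in control and 11.02 and 11.05 in Npac RNAi, a difference of 0.25 that did not pass the test (SE 0.0667, limma adjusted p = 0.0555). The probe set 1430164_a_at rose (6.98 and 6.74 against 7.28 and 7.43; 0.49, SE 0.106, limma adjusted p = 0.0325). Its call was lost without any 1 of the 4 arrays (limma adjusted p = 0.0611 to 0.138). The dimmest, 1425457_a_at, read 6.30 and 6.34 against 6.21 and 6.29 and had no call (-0.07). Grb10 therefore had no direction shared by its 3 probe sets.

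Mest, which encodes a protein of the alpha/beta hydrolase fold, read 10.00 and 9.95 in control and 9.94 and 9.90 in Npac RNAi (-0.06, SE 0.0591, limma adjusted p = 0.497). Snrpn, the gene of the spliceosomal protein SmN, read 7.15 and 7.26 against 7.04 and 7.16 by its 1 probe set, 1432096_at, and the groups overlapped (-0.11, SE 0.0768, limma adjusted p = 0.344). Another 6 probe sets are annotated to both Snurf and Snrpn, which share a transcript, and are no measure of either gene alone. Of these 4 were called lower (-0.48 to -0.35), and they were the bright ones, with control means of 8.79 to 11.29. The rest had control means of 3.38 and 3.87 and no call (0.01 and -0.23). Nnat, which encodes the small membrane protein neuronatin, read 4.95 and 5.46 in control and 5.30 and 5.63 in Npac RNAi. This was the widest replicate spread among the brightest probe sets in control (SD 0.362, n = 2), and the difference of 0.27 (SE 0.209, limma adjusted p = 0.378) lay within it.

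Of the 25 measured genes at the loci of the 10 genes that are listed as imprinted in some tissue, 6 were called higher and 4 lower. Their median difference was 0.01. The 40% called stands beside 33.9% of all genes, 19.3% higher and 14.6% lower, and is near that background. Beside Sgce and Peg10, Casd1, a sialic acid acetyltransferase gene, rose by 0.84 (SE 0.104) and the paraoxonase gene Pon2 by 0.72 (SE 0.105). On the same side as Pon2, Ppp1r9a (-0.14, SE 0.0607) and Pon3 (0.28, SE 0.0769) had no call. Asb4, an ankyrin repeat gene there, fell from 6.03 and 5.83 to 5.31 and 5.43 (-0.56, SE 0.0928). It is rather dim, at percentile 37.8 of level. With all their probe sets averaged, the differences of Casd1 and Pon2 were 0.39 and 0.30. Calcr, Tfpi2 and Dlx5, further out, differed by -0.13, 0.25 and -0.18 with no call. With 1 array left out, Casd1 differed by 0.71 to 0.98, Pon2 by 0.59 to 0.85 and Asb4 by -0.65 to -0.46. The Casd1 call was lost without either Npac array, and that of Pon2 without control array 2 or either Npac array. That of Asb4 was lost without any 1 array. Calls became fewer over all probe sets in these fits.

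Beside Grb10, both listed neighbours were lower. Cobl, an actin nucleator gene, fell from 10.07 on both control arrays to 9.20 and 9.22 (-0.86, SE 0.0551, limma adjusted p = 0.00251). Ddc, the gene of the decarboxylase that makes dopamine and serotonin, fell from 9.83 and 9.75 to 9.27 and 9.25 (-0.53, SE 0.0605). The Ddc call was lost without either control array or Npac array 2 (limma adjusted p up to 0.0586), and the second Cobl probe set had no call (0.25), the average of both being -0.31. In the Snrpn region, Ndn, which encodes the MAGE family protein necdin, rose from 10.40 and 10.20 to 11.06 and 11.12 (0.79, SE 0.0887, limma adjusted p = 0.00749). The phospholipid flippase gene Atp10a fell from 5.27 and 5.17 to 4.56 and 4.58 (-0.65, SE 0.0652). It lies in the dim part of the array, at percentile 25.9 of level. Ube3a, the ubiquitin ligase gene, rose by 0.35 (SE 0.0574). The Ndn call was lost without Npac array 2 and that of Ube3a without any 1 array (limma adjusted p up to 0.0569 and 0.0952). Averaged over their probe sets, Ndn differed by 0.47 (5 of its 8 were called higher), Ube3a by 0.14 with no call, and Atp10a by -0.22. Magel2 (-0.26), Mkrn3 (-0.06) and Peg12 (0.07) of the same region had no call.

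Blcap, whose intron holds Nnat, rose from 9.57 and 9.59 to 10.20 and 10.18 (0.61, SE 0.0555, limma adjusted p = 0.0049), with no call without control array 2 (0.0507). Copg2 (0.16), Klf14 (0.20) and Cpa4 (-0.14) around Mest had no call, and neither had Phactr2 beside Plagl1 (-0.09) or Slc22a2 beside Igf2r (0.01). Counting the nearest 5 measured genes on either side of each locus, imprinted or not, gave 80 genes, of which 16 were higher and 11 lower, with a median of -0.06. Their share of calls, 33.8%, lay at the 33.9% of all genes, and the count was added after the values were seen. Among those around Plagl1, which fell, 4 were higher, with Stx11 at 1.55 and Utrn at 1.15.

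**Figure D3:**
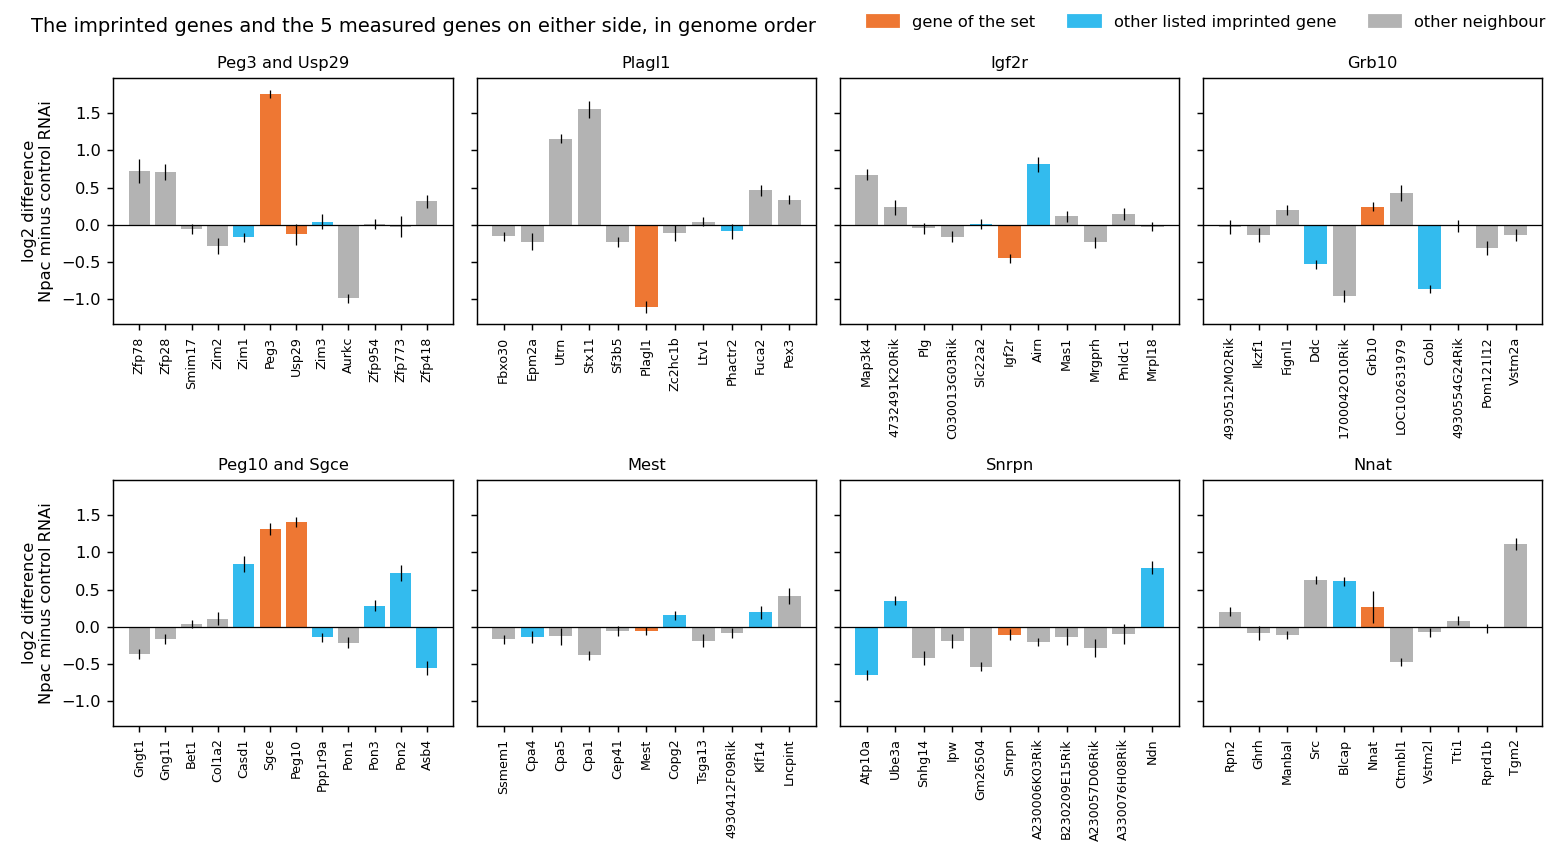
Log2 difference (Npac RNAi minus control RNAi; bars start at 0, lines are limma's standard error) of the 10 imprinted genes and the 5 measured genes on either side of each locus, in genome order and not to distance. Peg3 at 1.76 stands beside Zim1 at -0.17 and Usp29 at -0.13, whereas Sgce and Peg10 rise together, with Casd1 at 0.84 next to them.

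A list of 48 further genes imprinted in some tissue of the mouse was used, of which 41 were measured, the 25 above among them. Whether they are imprinted in these cells was not tested. Of the 41, 12 were higher and 4 lower (39% called, against 33.9% of all genes), with a median of 0.04. Of the 16 that lie elsewhere in the genome 6 were higher and 0 lower (limma; 0 lower at an unadjusted p under 0.05), with a median of 0.16. The 37.5% called stands near the share over all genes. The largest rise was that of Sfmbt2, a Polycomb-related gene expressed in the placenta, from 9.80 and 9.79 to 11.53 on both Npac RNAi arrays (1.74, SE 0.055, limma adjusted p = 0.0011), almost the size of the Peg3 rise. Its second probe set rose by 1.17. Nap1l5, a nucleosome assembly gene, rose by 0.93 (5.80 and 5.89 to 6.67 and 6.88; SE 0.095), and its call was lost without either control array (limma adjusted p up to 0.0554).

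Among 16 factors that set, keep or remove the marks at imprints, 3 were higher and 6 lower (56.2% called, against 33.9% of all genes). All 16 were bright, at percentiles of level from 69.9 to 99.2, whereas the share over all genes counts dim genes too. The shares are therefore not like for like, and no excess is read from them. Tet1, an enzyme that oxidises methylated cytosine, fell by 0.79 on the log2 scale (12.21 and 12.13 to 11.36 and 11.40; SE 0.0635), and Tet2 fell by 0.35 (SE 0.0613). Uhrf1, which brings the maintenance methyltransferase to replicated DNA, fell by 0.57 (SE 0.0655). Trim28 went from 13.54 and 13.53 to 13.09 and 13.05 (-0.47, SE 0.0567) and Zfp57 from 8.20 and 8.24 to 7.83 and 7.77 (-0.42, SE 0.0602, limma adjusted p = 0.0129). The brightest probe set of the de novo methyltransferase gene Dnmt3a was lower (-0.56, SE 0.0554), but another was higher (0.72) and the average of all 5 differed by -0.05. Dppa3, a maternal factor that protects methylation (0.65, SE 0.0633), and the methyltransferase genes Dnmt3b (0.43, SE 0.0561) and Dnmt3l (0.41, SE 0.0584) were higher, the last 2 turning to -0.11 and -0.13 with the spike-in scaling described below. With 1 array left out, 1 to 4 of these factors were lower and 1 was higher. The calls on Zfp57, Tet2, Dnmt3b and Dnmt3l were lost without any 1 array (limma adjusted p up to 0.0834, 0.0916, 0.074 and 0.0744), Trim28 without either control array or Npac array 2 (up to 0.066), Uhrf1 without either control array (up to 0.0649) and Dnmt3a without control array 2 (0.0546).

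**Figure D4:**
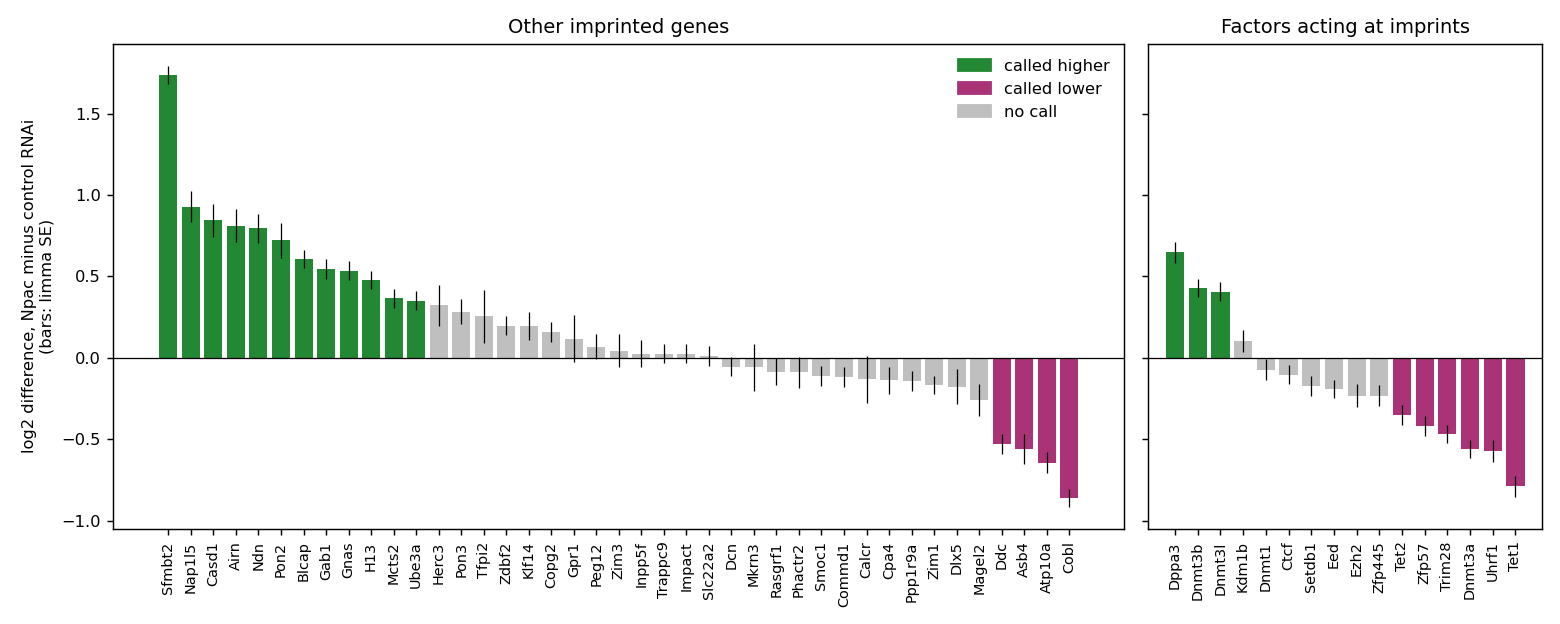
Log2 difference (Npac RNAi minus control RNAi; bars start at 0, lines are limma's standard error) of 41 other imprinted genes and 16 factors acting at imprints, coloured by call. Sfmbt2 at 1.74 exceeds every other gene shown, and Tet1 at -0.79 is the lowest of the factors.

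The rises of Peg3, Peg10 and Sgce and the fall of Plagl1 were called without any 1 of the 4 arrays, with differences between 1.74 and 1.78, 1.36 and 1.47, 1.23 and 1.38, and -1.18 and -1.03. Scaling by the poly-A spike-in controls, which are bacterial RNAs put in ahead of labelling, shifted every difference by -0.54. Peg3 (1.22), Peg10 (0.87) and Sgce (0.77) were then still called higher and Plagl1 (-1.64) lower. Under that scaling Usp29 (-0.67), Mest (-0.60), Snrpn (-0.65) and Grb10 (-0.29) were called lower too. The calls of Pon2, Blcap and Dppa3 were lost, and Ube3a turned to -0.19.

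**Figure D5:**
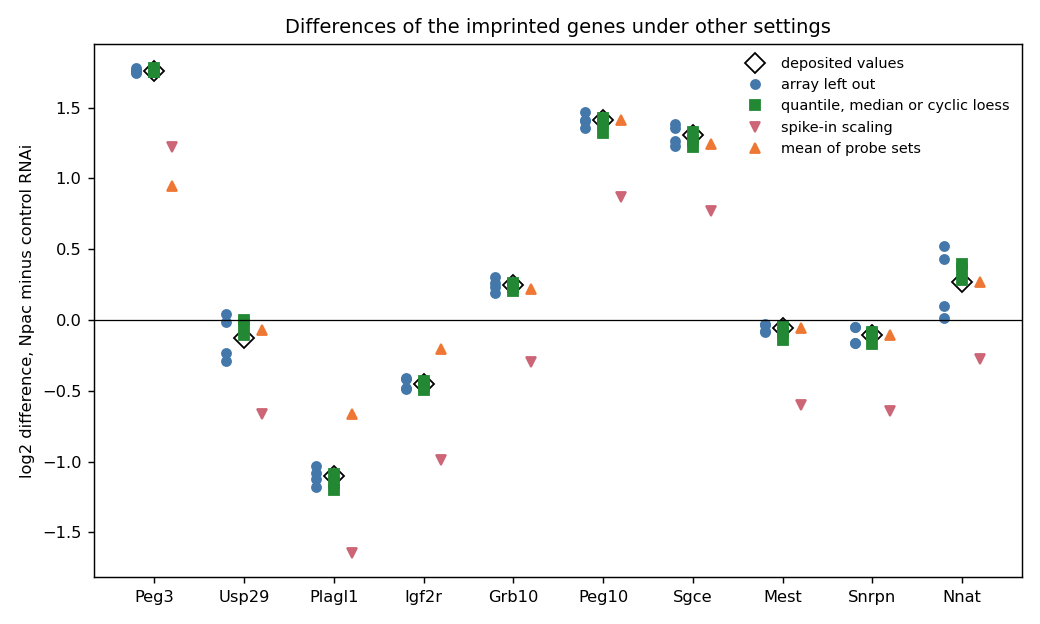
Log2 difference (Npac RNAi minus control RNAi) of the 10 imprinted genes on the deposited values (diamonds), with 1 array left out (circles), after 3 further normalizations (squares), with spike-in scaling (triangles down) and with all probe sets averaged (triangles up). Peg3, Peg10 and Sgce stay above 0 and Plagl1 and Igf2r below 0 in all that is plotted, while Grb10 turns to -0.29 with spike-in scaling.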

How the data were processed

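RNA of 4 samples was read on 1 Affymetrix array each. The deposited values are log2 expression per probe set and were made with RMA (background correction, equalising of arrays, summary per probe set), per the submitters' processing notes; the log2 base was inferred from the values (2.78 to 15.05), and no version is named in the sources used here. RMA equalises the arrays, so that a shift shared by most transcripts is removed. Depth is not defined for arrays; their number limits precision. The 64 control probe sets were left out, 932 probe sets with several symbols were given to no gene, and symbols were updated through Entrez identifiers. The test of the groups was that of limma (version 3.58.1, under R 4.3.3; lmFit and eBayes with group as the only term; 2 residual and 2.56 prior degrees of freedom), tested on simulated data. An exact permutation test of 2 against 2 arrays cannot go below p = 0.333 and was not used. Genes were named by rule: the 10 genes, Glyr1, up to 6 called rises and 6 falls per list, and every listed gene at their loci; others are said to be added. The genes and lists were chosen with earlier results of these data known. Alternatives covered moderation, normalization, spike-in scaling, filter, probe set choice, threshold, replicate block and left-out arrays. With 1 array left out, the lone array is assumed to vary like the other group, and calls became fewer over all probe sets.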

Additional observations from a re-analysis of the deposited data

Results flagged for a closer look

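The 24 poly-A spike-in probe sets, which no comparison above tests, read 0.54 higher (log2) on the Npac RNAi arrays than on the control arrays, and all 24 of the 24 had this sign. Several of them read the same few RNAs. Groups of 2 arrays are too small for a check of single arrays that stand apart.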

How the results depend on the processing

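Quantile normalization, median centring, cyclic loess, a robust prior and averaging of probe sets changed no direction or call among the 10 genes. With spike-in scaling 6 of the 10 genes were lower, 13 of the 21 probe sets lower, 5 other imprinted genes higher and 26 lower, and 0 factors acting at imprints higher (limma; 0 at an unadjusted p under 0.05) and 13 lower; it reversed Grb10 (-0.29; 1430164_a_at -0.045), Igf2r 1424111_at (-0.50), Peg3 1447732_x_at (-0.49), Zim3 (-0.50), Slc22a2 (-0.53), Copg2 (-0.38), Klf14 (-0.34), Peg12 (-0.47), Ube3a (-0.19), Dnmt3b (-0.11) and Dnmt3l (-0.13), turned the uncalled Nnat (-0.27), Pon3 (-0.26) and Tfpi2 (-0.29) below 0 as well, and the shift of -0.54 is its construction. Without moderation of the variances 0 of the 10 genes and 0 of the 21 probe sets were lower (2 and 2 at an unadjusted p under 0.05), 4 probe sets were higher, 2 other imprinted genes were higher and 1 lower, and 1 factor was higher and 1 lower; Sgce, Plagl1 and Igf2r lost their calls (limma adjusted p = 0.06, 0.0617 and 0.0821). At an adjusted p under 0.01, 1 gene and 1 probe set of the set were lower and 1 factor was higher. A trend in the prior and a filter at the median level each gave 10 factors lower, and the filter left 2 other imprinted genes lower and removed Usp29 and Nnat. Grb10 was called higher with the trend, with the filter and with 1 probe set per gene in the fit. With 1 array left out, 3 of the 10 genes were higher and 1 lower, 6 probe sets higher and 1 to 2 lower, 3 to 7 other imprinted genes higher and 2 to 3 lower, and 1 factor higher and 1 to 4 lower. With the replicate number as a block, 1 of the 10 genes and 1 of the 21 probe sets were lower, the Igf2r call being lost (adjusted p = 0.0539); the numbers share no stated batch, and same-numbered arrays deviated oppositely (r = -0.14). A crossed block, chosen after seeing the data, changed no call among the 10 genes. Where no cause is given, it was not tested.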

Other observations

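Beside Snrpn, and chosen after their values were seen, Snhg14, a host of small nucleolar RNAs, was lower (-0.42 on the log2 scale), as was the predicted gene Gm26504 (-0.53). Ipw (-0.19), A230006K03Rik (-0.20), B230209E15Rik (-0.13), A230057D06Rik (-0.29) and A330076H08Rik (-0.09) of the same stretch had no call. Near Peg3, the zinc finger genes Zfp28 (0.71) and Zfp78 (0.72) were higher, the kinase gene Aurkc was lower (-0.98) and Zim2 had no call (-0.28). Near Nnat, Src (0.63) and the transglutaminase gene Tgm2 (1.10) were higher and Ctnnbl1 was lower (-0.47).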
